A study of Mus musculus with 12 samples.

Results

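miR-203 and miR-205 are microRNAs (miRNAs) best known from epithelia, and their levels were followed here in 12 small RNA libraries of sorted mouse embryonic cells that span the passage from endoderm to pancreatic progenitors. Members were taken by name, as every entry of the count table named mir-203, mir-203b or mir-205 or one of their arms, and the rule uses no measured value. This gave 7 of 1053 entries, 4 of them for miR-203 or miR-203b and 3 for miR-205. Of the 7, 5 were mature arms and 2 were precursors. Cells of embryonic day (E) 8.5 carried Foxa2-CreER, a tamoxifen-inducible Cre recombinase knocked into Foxa2 (the Foxa2 mcm allele), and were sorted from whole embryos after tamoxifen was given to the dam at E6.5. The study used this label for endoderm, and the labelled cells need not all be endoderm. Cells of the 3 later stages, E9.5 to E11.5, carried Pdx1-Cre, a transgene driven by Pdx1, a gene of early pancreas and duodenum, and were sorted from the trunk, so Pdx1-Cre-labelled cells need not all be pancreatic. In every group Cre had switched on tdTomato (tdtomato+ in the labels), and 3 libraries were made per stage.

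The Cre driver and the dissected region changed together with stage between E8.5 and E9.5, so these cannot be told apart in any comparison with E8.5. The library names carry a number that each stage had for itself, so that any batch it marks and the stage cannot be told apart either. Per the study's methods the sires of the labelled embryos also carried 1 mir-302 allele replaced by eGFP, and the labels do not give the mir-302 genotype of the embryos. The labels do not say whether the libraries of a stage came from separate litters or embryos, and p-values then measure the spread between these libraries. These were bulk samples, in which fewer cells of a type and less RNA per cell cannot be told apart.

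A miRNA is cut from a hairpin precursor, and 1 or both arms of the hairpin become mature miRNAs of about 22 bases. A mature miRNA pairs with messenger RNAs mainly through its seed, the bases from position 2 to position 8, and lowers their translation and stability. miR-203 is abundant in stratified epithelia such as the epidermis, where it acts against the progenitor factor p63 and favours exit from the cell cycle. miR-205 is expressed in epidermis, glands and other epithelia, and together with the miR-200 family it represses Zeb1 and Zeb2, transcription factors that drive the epithelial-to-mesenchymal transition.

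The mature sequences of the 5 arms that the table holds are shown to make clear that the members are distinct molecules and to mark the seed of each, in capitals. They were taken from RefSeq on GRCm38.p6, the assembly also called mm10, and all 5 were matched by name.
miR-203-3p: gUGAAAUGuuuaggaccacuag
miR-203-5p: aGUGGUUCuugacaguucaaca
miR-203b-3p: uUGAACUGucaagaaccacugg
miR-205-5p: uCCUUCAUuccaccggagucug
miR-205-3p: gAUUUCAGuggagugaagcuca
No 2 of these arms had the same seed. Among 1679 mature mouse miRNA names compared, none outside the members had the seed of any of the 5, and none had the same bases at positions 2 to 7. Counts assigned to miR-203-3p and miR-205-5p were therefore not part of a larger seed family.

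The hairpins are shown with the abundant arm in capitals, since the data differ by arm.
Mir203: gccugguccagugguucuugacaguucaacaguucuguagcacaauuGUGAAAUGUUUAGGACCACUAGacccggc
Mir205: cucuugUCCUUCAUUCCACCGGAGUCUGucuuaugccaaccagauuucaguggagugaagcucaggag
Mir203 lies on chromosome 12 (112130880 to 112130955, plus strand, mm10), between the genes Aspg, which ends at 112127559, and Kif26a, which begins at 112146208. Its 3p arm, miR-203-3p, occupies 112130927 to 112130948. miR-203b-3p comes from the opposite strand of the same place (112130887 to 112130908), and 20 of its bases lie opposite miR-203-5p. Mir205 lies on chromosome 1 (193507463 to 193507530, minus strand), where the annotation has an exon of 4631405K08Rik, a long noncoding RNA of the same strand, within the interval that RefSeq names Mir205hg (193506460 to 193510210). Its 5p arm, miR-205-5p, occupies 193507503 to 193507524.

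Depth was least at E9.5, with 53996 to 80075 counts per library, against 386094 to 594224 for E8.5, 133435 to 267978 for E10.5 and 417743 to 1103383 for E11.5. Levels are given as CPM, counts scaled to a common library total, here with the TMM factors of edgeR. A count of 0 in a library still allows a level of up to 3 counts. This floor was 32.2 to 76.3 CPM in the shallow E9.5 libraries, at most 25.9 CPM in those of E10.5, and below 8 CPM in the others (4.36 to 7.80 for E8.5, 2.76 to 6.88 for E11.5). The reads were amplified by PCR, so these floors and the intervals below cover counting error only. Replicate 1 of E8.5 and replicate 3 of E9.5 stood apart in the upper read length that their headers carry, 36 bases against 35 in the other 10. Whether that number was a setting or the longest read present is not stated. It is called the longer read limit, or 36-base limit, below. E9.5 replicate 3 also had the smallest total and a TMM factor of 0.733, and the precursors mir-6236 and mir-6240 took 28.3% of its counts against 12.7% and 14% in the other E9.5 libraries. Results that rest on these libraries are given with and without them. To describe the groups, miR-122-5p, the defining miRNA of hepatocytes and their precursors, stood at 465 to 597 CPM in the E8.5 libraries and at 38996 CPM or more in all those of Pdx1-Cre. The sum of miR-375-3p and miR-7a-5p, which mark pancreatic endocrine cells, lay between 23116 and 27663 CPM in the former and between 34061 and 139888 CPM in the latter, with no test on the sum. The level of miR-122-5p does not show that Pdx1-Cre-labelled cells were pancreatic, and the part of liver-lineage cells was not tested.

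miR-203-3p (mmu-miR-203-3p in the table) was counted in all 12 libraries. At E8.5 it had 520, 81 and 73 counts, or 905, 210.5 and 106 CPM in replicates 1 to 3. At E9.5 it had 111, 226 and 1076 counts, or 1813, 2428 and 27371 CPM. Replicate 1 was the high library at E8.5, at 4.30 times the next. Replicate 3 was far above the rest at E9.5, at 11.3 times the next. Ratios at least that large were found for 7.18% of the 571 entries in E8.5 replicate 1 and 8.41% in E9.5 replicate 3. An entry not counted in the other libraries of the stage counts as larger in these shares. Such an excess was thus not peculiar to miR-203-3p. At E10.5 the levels were 1815, 1287 and 4131 CPM, and at E11.5 they were 1075, 1734 and 2118 CPM. All 9 Pdx1-Cre libraries lay above all 3 E8.5 libraries, although the margin was narrow, from 905 CPM in the highest E8.5 library to 1075 CPM in the lowest Pdx1-Cre library. This full separation was met by 4.03% of the 571 entries tested.

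As a share of all counts, miR-203-3p took 0.0123% to 0.1% at E8.5 and 0.112% to 0.437% in the Pdx1-Cre libraries other than E9.5 replicate 3. In E9.5 replicate 3 it took 1.99% (95% Wilson interval 1.88 to 2.11), which made it the 9th most abundant mature entry of that library. In the other Pdx1-Cre libraries its rank lay between 40 and 87, and at E8.5 it was at 110, 207 and 263. miR-203-3p was thus among the first 87 of 633 mature entries in 8 Pdx1-Cre libraries. It was a leading one in a single library.

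miR-205-5p (mmu-miR-205-5p) was also counted in all 12 libraries. At E8.5 it had 175, 45 and 89 counts, or 304, 117 and 129 CPM. At E9.5 it had 72, 37 and 56 counts, or 1176, 397 and 1425 CPM. E8.5 replicate 1 was again the highest of its stage, while E9.5 replicate 3 was close to replicate 1 and replicate 2 was the low one. At E10.5 the levels were 1681, 1089 and 1329 CPM, and at E11.5 they were 855, 1365 and 1397 CPM. The 9 Pdx1-Cre libraries again all lay above the 3 E8.5 libraries, with 397 CPM in the lowest against 304 CPM in the highest. Its rank among mature entries was 189 to 256 at E8.5 and 72 to 154 later.

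**Figure D1:**
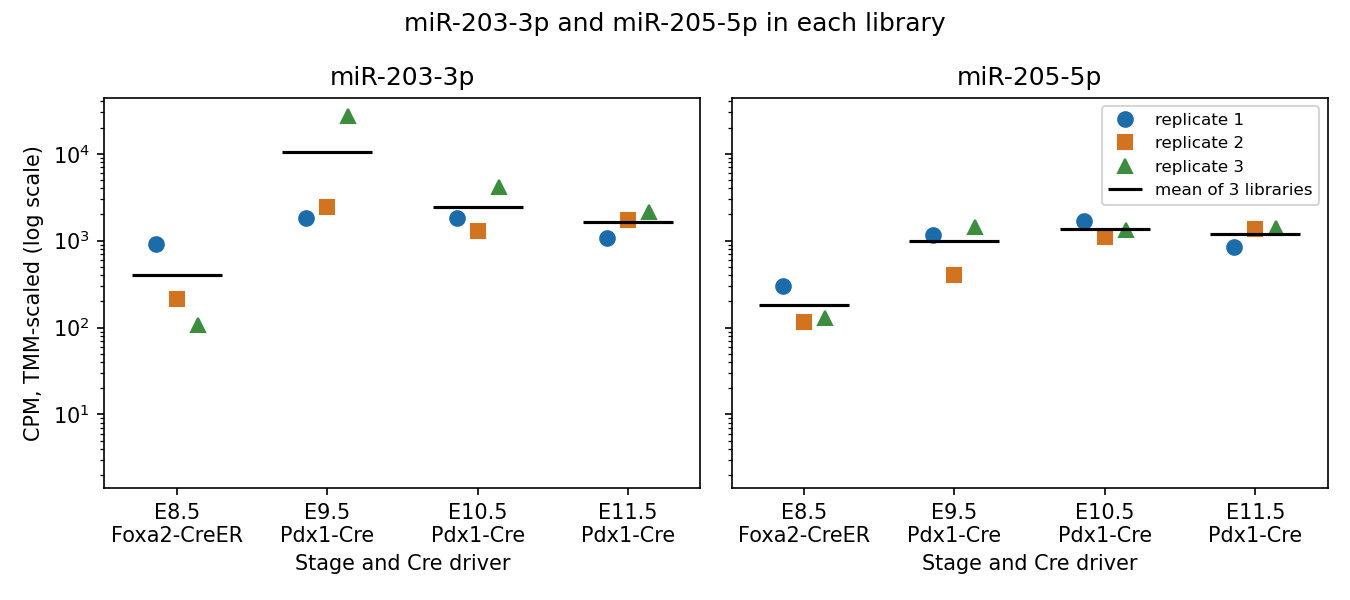
Levels of miR-203-3p (left) and miR-205-5p (right) in CPM on a log axis, for each of the 12 libraries by stage and Cre driver, with marker shape for the replicate and a bar for the mean of 3 libraries. Both miRNAs are lowest in the 3 E8.5 libraries, and E9.5 replicate 3 stands alone at 27371 CPM of miR-203-3p while its miR-205-5p level of 1425 CPM is close to that of replicate 1.

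To ask how Pdx1-Cre-labelled cells differed from the Foxa2-CreER-labelled cells of E8.5, E9.5 was compared with E8.5. miR-203-3p averaged 407 ± 434 CPM in the E8.5 libraries and 10537 ± 14581 CPM in those of E9.5 (SD, n = 3 each), and was higher at E9.5 by 4.69 ± 0.98 on the log2 scale (± SE, edgeR quasi-likelihood test, adjusted p = 0.00278). The same test called 4.03% of entries higher and 5.6% in either direction, and over all entries the log2 fold change had a median of -0.84. The size of the miR-203-3p difference rested on 1 library. Without E9.5 replicate 3 the E9.5 mean was 2121 CPM (n = 2), the log2 fold change was 2.35 and the adjusted p was 0.103, so the call was lost. The call was kept in each of the other 11 fits that left out 1 library. Without E8.5 replicate 1 as well as E9.5 replicate 3, the libraries with the longer read limit, the log2 fold change was 3.77 and the adjusted p was 0.00836. This fit was added after seeing the data and also drops the highest E8.5 library. Without that E8.5 library alone the log2 fold change was 6.05. With all libraries DESeq2 gave miR-203-3p a log2 fold change of 5.57 ± 1.12 but no p, so that tool neither kept nor lost the call. Why it gave no p was not tested.

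The E8.5 mean of miR-205-5p was 184 ± 105 CPM and its E9.5 mean was 999 ± 536 CPM (SD, n = 3 each). Its log2 fold change of 2.44 ± 0.87 was not called (adjusted p = 0.116), although the libraries did not overlap. At this step 6.83% of entries were higher with no overlap between libraries. The call of miR-205-5p depended on the scaling and the tool: RLE scaling gave 3.15 (adjusted p = 0.0284) and DESeq2 gave 3.14 (adjusted p = 0.000426). Without E9.5 replicate 2, the low library, it was 3.06 (adjusted p = 0.0282).

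**Figure D2:**
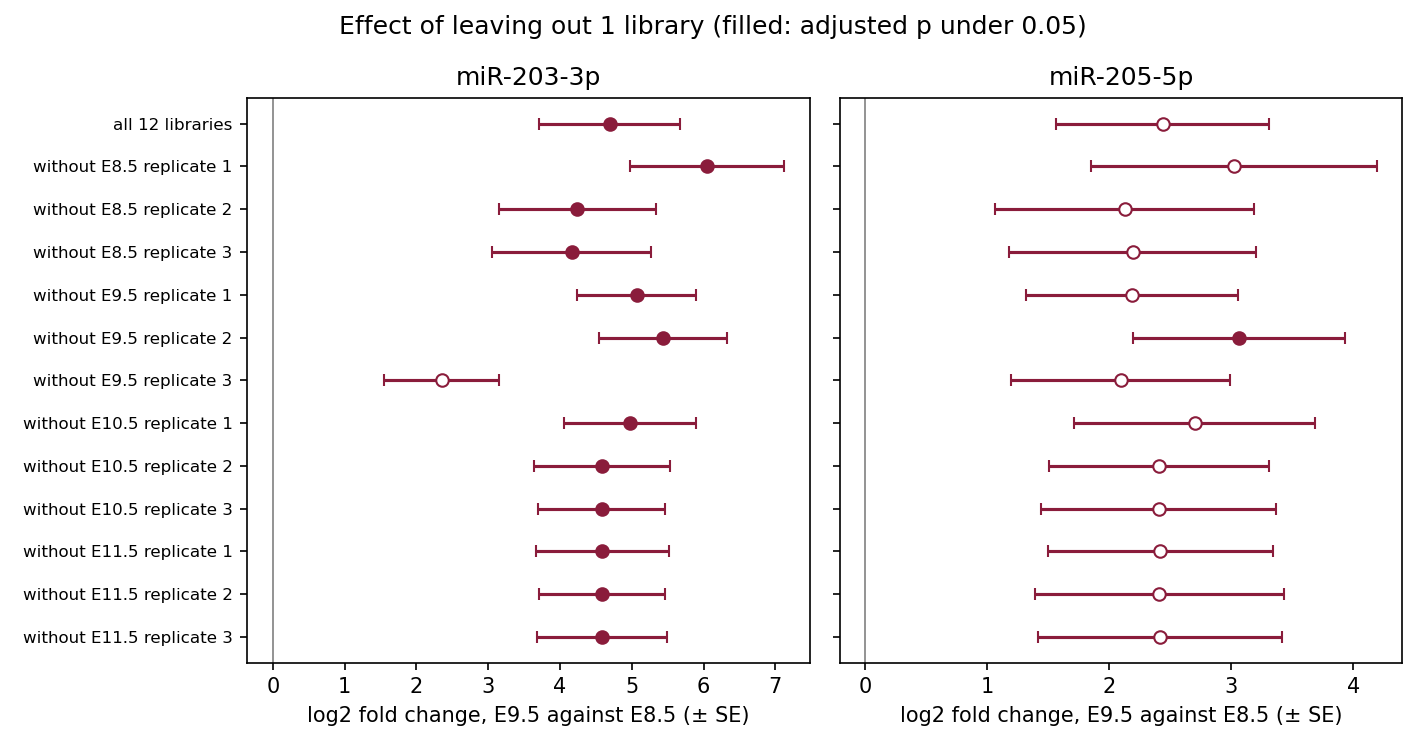
Log2 fold change of E9.5 against E8.5 (x axis, with bars of ± SE) for miR-203-3p and miR-205-5p, with all 12 libraries and with each library left out in turn (y axis). Filled points have an adjusted p under 0.05; miR-203-3p drops from 4.69 to 2.35 and loses its call without E9.5 replicate 3, whereas miR-205-5p stays between 2.09 and 3.06.

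Later stages were next set against E8.5. These comparisons share their E8.5 libraries with the first, so their values are given side by side and not as separate evidence. At E10.5 miR-205-5p averaged 1366 ± 298 CPM and was higher than at E8.5 by 2.89 ± 0.89 (edgeR, adjusted p = 0.0451), where the test called 4.38% of entries higher. At E11.5 miR-205-5p averaged 1206 ± 304 CPM and was higher by 2.71 ± 0.88 (edgeR, adjusted p = 0.0467), where 5.25% of entries were called higher. Both calls lay close to the threshold, and were kept in 8 and 6 of 11 alternatives that used every library. With 1 library left out the log2 fold change stayed between 2.60 and 3.51 for E10.5 and between 2.48 and 3.35 for E11.5, but each call was kept in 3 of 12 such fits, those that left out an E9.5 library, and the adjusted p reached 0.177 and 0.174. Without both libraries of the longer read limit the calls were kept (adjusted p = 0.0401 and 0.0403).

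miR-203-3p averaged 2411 ± 1513 CPM at E10.5, a log2 fold change of 2.57 ± 0.89 against E8.5. Its E11.5 mean was 1643 ± 527 CPM, a log2 fold change of 2.01 ± 0.87, and neither was called (edgeR, adjusted p = 0.0655 and 0.151). The libraries did not overlap in either comparison, as for miR-205-5p. Entries higher with no overlap made up 13% of all entries in the E10.5 comparison and 17.3% in that of E11.5. Without E8.5 replicate 1, the high library, they were 3.98 and 3.44 and were called (adjusted p = 0.00836 and 0.0153). The E10.5 value was called in 4 of 10 alternatives that kept all libraries and in 5 of 12 fits that left out a library, among them the 3 without an E9.5 library, and the E11.5 value in 2 and 1.

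Among the Pdx1-Cre stages no difference between neighbours in time passed the test for either miRNA. From E9.5 to E10.5 miR-203-3p had a log2 fold change of -2.12 ± 0.88 (edgeR, adjusted p = 0.192), in a comparison where 4.38% of entries were called in either direction. That sign rested on E9.5 replicate 3, and without it the value was 0.21. From E10.5 to E11.5 the log2 fold change of miR-203-3p was -0.55 ± 0.84 (adjusted p = 0.899), where 0.35% of entries were called. miR-205-5p had log2 fold changes of 0.46 ± 0.83 from E9.5 to E10.5 and -0.18 ± 0.82 from E10.5 to E11.5 (adjusted p = 0.777 and 0.990). RLE scaling turned the first of these to -0.12.

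Ordered by mean level, miR-203-3p ran from E8.5 through E11.5 and E10.5 to E9.5, and without E9.5 replicate 3 the E9.5 mean of 2121 CPM fell below the 2411 CPM of E10.5. miR-205-5p ran from E8.5 through E9.5 and E11.5 to E10.5. No pair of neighbours in either order differed by the test. Over E9.5 and E11.5, which are not neighbours in time, the log2 fold change was -2.68 ± 0.89 for miR-203-3p (adjusted p = 0.0997) and 0.28 ± 0.83 for miR-205-5p (adjusted p = 0.853), where 4.55% of entries were called in either direction. The miR-203-3p value was called in 3 of 10 alternatives that kept all libraries, among them RLE scaling (-3.61, adjusted p = 0.0317), and in 4 of 12 fits that left out a library, while without E9.5 replicate 3 it was -0.33.

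The precursor entries hold reads that the pipeline assigned to the hairpin, and in E9.5 replicate 1 the precursor mir-203 had 0 counts beside 111 of miR-203-3p, so a read of the mature arm was not counted for both. mir-203 had 47, 2 and 18 counts at E8.5, or 81.8, 5.20 and 26.2 CPM. At E9.5 it had 0, 5 and 456 counts, so that replicate 3 stood at 11599.5 CPM while replicate 2 stood at 53.7 CPM. Nearly all the E9.5 signal of the precursor was in 1 library, which was 216 times the next, and the E9.5 and E8.5 libraries overlapped. A ratio at least that large was found for 5.08% of entries in the same library. In that share an entry with 0 counts in both other E9.5 libraries counts as larger, however few its own counts. mir-203 was called higher at E9.5 (log2 fold change 6.66 ± 1.79, edgeR, adjusted p = 0.0261), and without E9.5 replicate 3 the value turned to -0.45 (adjusted p = 0.867).

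At E10.5 mir-203 stood at 436, 69.1 and 713 CPM, and at E11.5 it stood at 484, 455 and 771 CPM with 211, 495 and 637 counts. The E11.5 libraries were alike and all lay above those of E8.5. The log2 fold change of E11.5 against E8.5 was 3.90 ± 1.58 and was not called (adjusted p = 0.120). It was called in 4 of 9 alternatives that kept all libraries and in 2 of 12 fits that left out a library. mir-205 was sparser, with 17, 0 and 2 counts in the E8.5 libraries and 1, 0 and 2 in those of E9.5. It had 108, 24 and 3 counts at E10.5 and 27, 119 and 108 at E11.5, and only the E11.5 libraries all lay above those of E8.5 in CPM. Its E10.5 libraries spread from 11.8 to 414 CPM, and edgeR called no stage difference of mir-205 (adjusted p = 0.212 for E10.5 and 0.445 for E11.5 against E8.5). DESeq2 called mir-205 higher at E10.5 than at E8.5 (4.42, adjusted p = 0.0354). Of the 4 members that passed the filter on low counts, 2 were called higher at E9.5 than at E8.5, miR-203-3p and its precursor, where 4.03% of all entries were called higher, and both calls were lost without E9.5 replicate 3.

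The share of mir-203 among mir-203 plus miR-203-3p counts varied widely between libraries. It was 8.29%, 2.41% and 19.8% at E8.5 and 0%, 2.16% and 29.8% at E9.5. It was 19.4%, 5.10% and 14.7% at E10.5 and 31.0%, 20.8% and 26.7% at E11.5. The value of E9.5 replicate 3 (95% Wilson interval 27.5 to 32.1) lay far above those of its stage but within the range of E11.5. The share of mir-205 among mir-205 plus miR-205-5p counts was below that of mir-203 in every E11.5 library, at 6.75%, 7.42% and 8.55%. In the earlier libraries it ranged from 0% to 8.85% (E8.5), from 0% to 3.45% (E9.5) and from 0.877% to 19.7% (E10.5).

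**Figure D3:**
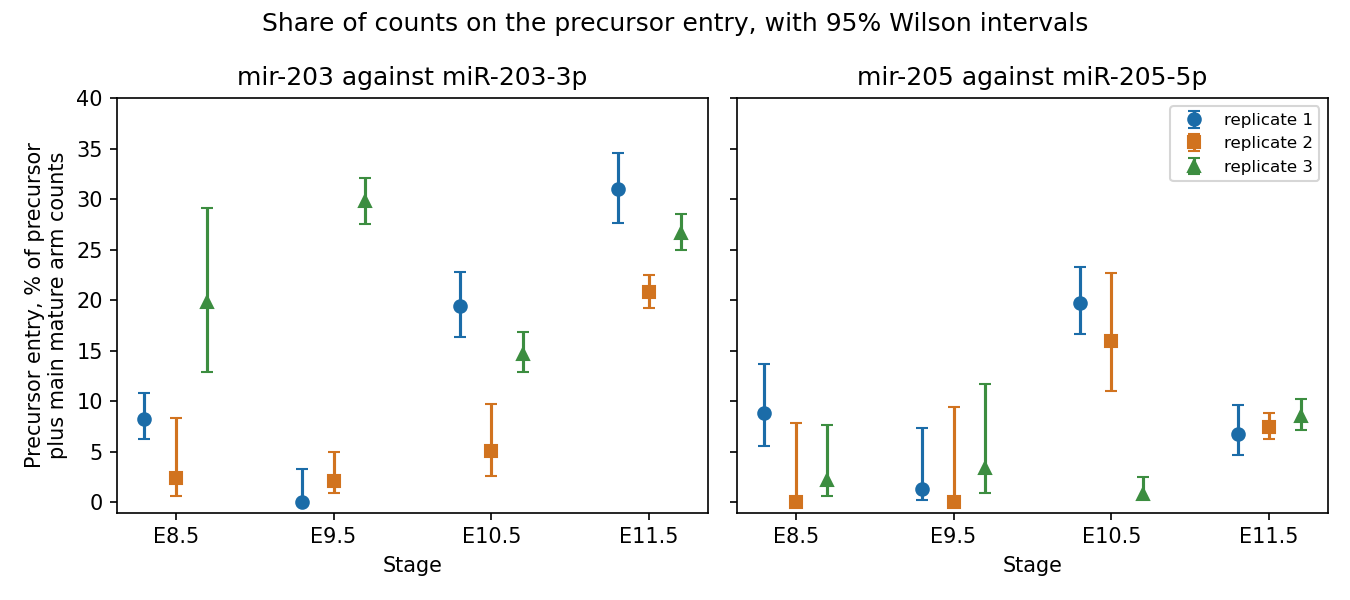
Share of the precursor entry among precursor plus main mature arm counts (y axis, %) for mir-203 (left) and mir-205 (right) in each library by stage, with 95% Wilson intervals. mir-203 reaches 20.8% to 31.0% in the E11.5 libraries and 29.8% in E9.5 replicate 3, while mir-205 stays between 6.75% and 8.55% at E11.5.

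At both loci 1 arm made up nearly all mature counts. Over the 12 libraries miR-203-3p had 7869 counts and miR-203-5p had 21, so the 3p arm took 99.7% of the mature counts. miR-205-5p had 4390 counts and miR-205-3p had 30, so the 5p arm took 99.3%. The precursors held far more counts than the minor arms, 2175 for mir-203 and 411 for mir-205. Each minor arm was seen in 1 library only: miR-205-3p in E8.5 replicate 1 and miR-203-5p in E11.5 replicate 3. miR-203b-3p, from the opposite strand, was counted 51 times, all in E11.5 replicate 1. These 3 members failed the filter and were not tested, and their 0 counts elsewhere are bounded by the floors given above.

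The balance between miR-203-3p and miR-205-5p differed between libraries. Their count ratio was 2.97, 1.80 and 0.820 at E8.5 and 1.54, 6.11 and 19.2 at E9.5. It was 1.08, 1.18 and 3.11 at E10.5 and 1.26, 1.27 and 1.52 at E11.5. miR-203-3p was the more abundant in 11 of 12 libraries, E8.5 replicate 3 being the exception, and the ratio was tightest at E11.5. The ratio within a library does not depend on scaling. Across the 12 libraries the log2 CPM of the pair had a Pearson r of 0.77 and a Spearman rho of 0.73, given as a description since libraries of a stage share their Cre driver, dissection and depth range. Within the 9 Pdx1-Cre libraries r was 0.21 and rho was 0.38, so that most of the relation was the step from E8.5. Between miR-203-3p and mir-203 r was 0.72 and rho was 0.58 (0.64 and 0.42 within the Pdx1-Cre libraries), and r was 0.51 without the 2 libraries farthest from the median, E8.5 replicate 3 and E9.5 replicate 3. Between miR-205-5p and mir-205 r was 0.74 and rho was 0.70 (0.69 and 0.50), and r was 0.58 without the 2 farthest.

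The entries whose pattern was most like each member were found among 375 mature entries, by Pearson r of log2 CPM over the 12 libraries. For miR-203-3p they were miR-27b-3p (r = 0.89), miR-23b-3p (0.84), miR-21a-5p (0.83), miR-27a-3p (0.78) and miR-409-3p (0.76). miR-23b-3p and miR-27b-3p come from 1 genomic cluster. Without E9.5 replicate 3 the r of miR-27b-3p was 0.83 and that of miR-27a-3p was 0.63. For miR-205-5p they were miR-7b-5p (0.92), miR-24-3p (0.92), miR-122-5p (0.88), miR-7a-5p (0.87) and miR-382-5p (0.85). The leading entries of the pair thus had no name in common, but the lists were not unrelated. miR-24-3p comes from the same clusters as miR-23b-3p, miR-27b-3p and miR-27a-3p, and miR-409-3p and miR-382-5p both come from the Dlk1-Dio3 locus. By Spearman rho miR-122-5p was less alike to miR-205-5p (0.44) than miR-24-3p was (0.85). Depth, stage and Cre driver were common to all these entries.

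Other epithelial miRNAs were followed to set the members beside them, from a list of 13, of which 10 were in the table and were tested. The list held the miR-200 family, which represses Zeb1 and Zeb2, the miR-183 cluster, common in sensory and other epithelia, and miR-31-5p, a keratinocyte miRNA, with miR-34 and miR-449 miRNAs of ciliated epithelia. Against E8.5 the edgeR test called 0 of 10 for E9.5, then 3 for E10.5 and 5 for E11.5, each of them higher, where 4.03%, 4.38% and 5.25% of all entries were called higher. The 0 at E9.5 depended on the settings: of 11 alternatives that kept all libraries, miR-200b-3p was called in 7, miR-200a-3p and miR-31-5p in 6 each, miR-182-5p in 3, and miR-200c-3p and miR-96-5p in 1 each. Their median log2 fold changes were 0.64, 1.06 and 1.33, against -0.84, -0.26 and -0.07 over all entries. At E9.5 an unadjusted p under 0.05 was found for 114 of all 571 entries, and DESeq2 called 60 entries in all.

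miR-200b-3p rose by 1.65 ± 0.42 and 2.22 ± 0.42 at the 2 later stages (edgeR, adjusted p = 0.0121 and 0.000841). It stood at 2514, 3357 and 3304 CPM at E8.5 and at 4121 CPM or more in every Pdx1-Cre library. miR-182-5p rose by 1.18 at E10.5 and 1.10 at E11.5 (adjusted p = 0.000361 and 0.000739), and miR-183-5p rose by 1.07 and 1.28 (adjusted p = 0.00548 and 0.000812). miR-200c-3p and miR-429-3p were called at E11.5 only, at 1.37 and 2.14 (adjusted p = 0.0166 and 0.0363). With 1 library left out, the call of miR-200b-3p at E10.5 was lost in 4 of 12 fits (1.57 to 1.79), that of miR-183-5p at E10.5 in 2 (0.79 to 1.27), and those of miR-200c-3p and miR-429-3p in 5 each (1.25 to 1.66 and 1.91 to 2.53). miR-182-5p was abundant from the start, at 27160 to 30503 CPM in the E8.5 libraries.

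miR-31-5p had fold changes of the size seen for the members, 3.84 ± 1.20, 3.45 ± 1.18 and 2.93 ± 1.15 on the log2 scale in order of stage, and was not called (adjusted p = 0.0651, 0.0648 and 0.106). It stood at 250.5, 117 and 5.82 CPM at E8.5 and at 1699, 3502 and 127 CPM at E9.5, so E9.5 replicate 3 was its lowest E9.5 library. Its value was called in 6 of 11 alternatives that kept all libraries for E9.5, in 4 for E10.5 and in 2 for E11.5, and in 7, 4 and 1 of 12 fits that left out a library. miR-200a-3p at E9.5 had a log2 fold change of 2.74 ± 0.84 with no overlap and was not called (adjusted p = 0.0545). Among the 10 epithelial miRNAs tested, E9.5 replicate 3, the library highest in miR-203-3p, was the highest of its stage for 5 (miR-200a-3p, miR-200c-3p, miR-429-3p, miR-183-5p and miR-96-5p) and the lowest for 4 (miR-200b-3p, miR-182-5p, miR-31-5p and miR-34c-5p). The place of miR-34c-5p was not settled, since it had 2, 2 and 0 counts at E9.5 and the floor of replicate 3 was 76.3 CPM. miR-34c-5p had negative values in all 3 comparisons and was not called.

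**Figure D4:**
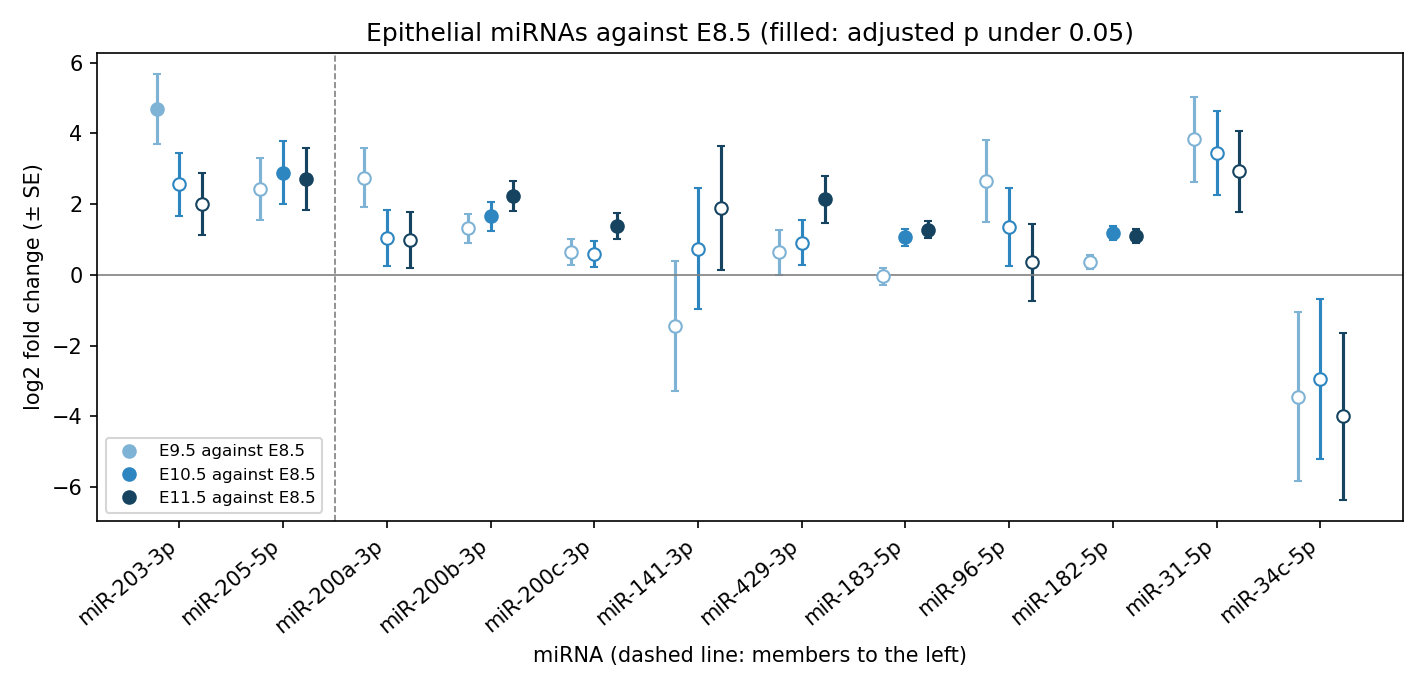
Log2 fold change against E8.5 (y axis, bars ± SE) at the 3 later stages for miR-203-3p, miR-205-5p and the 10 other epithelial miRNAs tested (x axis, members left of the dashed line). Filled points have an adjusted p under 0.05; miR-203-3p is filled at E9.5, miR-205-5p at E10.5 and E11.5, and miR-200b-3p, miR-182-5p and miR-183-5p at the 2 later stages.

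miRNAs of other cell types were summed per library to see what else the sorted cells held. The muscle list was carried almost wholly by miR-1a-3p, the miRNA of heart and skeletal muscle. Its sum was 26704, 15654 and 6324 CPM in the E8.5 libraries and 5309.8, 6392 and 27015 CPM in those of E9.5. It was 747, 268 and 3539 CPM at E10.5, then 855, 282 and 1721 CPM at E11.5. In all 4 stages the library highest in the muscle sum was also the one highest in miR-203-3p. The libraries had the same order in both at E8.5, E9.5 and E10.5, but not at E11.5. Among the 10 lists set beside the members, muscle was the only list to share its highest library with miR-203-3p in all 4 stages. These comparisons were chosen after the values were seen. For miR-205-5p the highest library was shared with the muscle list in 3 of 4 stages. It was also shared with the leukocyte list in 3 of 4, but the leukocyte sum was 1 count in the matching E10.5 and E11.5 libraries. For miR-203-3p the mesenchymal list shared the highest library in 3 of 4. miR-133a-3p, another muscle miRNA, had 75 counts in E8.5 replicate 1, 55 in E9.5 replicate 3 and at most 1 in every other library.

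The leukocyte list, of which 2 of 4 miRNAs were in the table, reached 1683 CPM in E9.5 replicate 1 and 2671 CPM in E9.5 replicate 3, almost all miR-223-3p, and stayed at or below 59.6 CPM in the other libraries. The endothelial list stood at 1832 to 2295 CPM at E8.5 and at 32.7 to 432 CPM in the Pdx1-Cre libraries, in the opposite direction to the members. The erythroid list ranged from 32.7 to 839 CPM and the neural list from 0 to 510.5 CPM with no separation between E8.5 and later stages. The mesenchymal list stood at 6754 to 13249.6 CPM at E8.5 and at 1418 to 11468 CPM later. The part of other cell types in the levels of miR-203-3p and miR-205-5p was not tested.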

How the data were processed

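Small RNA libraries (NEXTflex v3) were sequenced from 12 samples, 3 per stage, which were grouped by their labels. Unnormalised counts of reads, 1 row per miRNA entry and 1 column per library, were deposited by the authors, who made them with COMPSRA on mm10. Reads were trimmed of the adapter and of 4 random bases, aligned with STAR and counted against mature and precursor annotation. The file headers give read lengths of 17 to 35 bases (36 in 2 libraries), and how the upper value arose is not stated. Molecules were not counted by the random bases. Whether strand was used in counting is not given in the sources used here, so reads of miR-203-5p and of the antisense miR-203b-3p could be confused.

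Entries passing filterByExpr (minimum count 10, minimum total 15; 571 of 1053) were tested with the edgeR 4.0.16 quasi-likelihood test in R 4.3.3, with TMM factors, stage as the factor, all 12 libraries in 1 fit and Benjamini-Hochberg adjustment over all entries; an adjusted p under 0.05 was called. The SE is the log2 fold change divided by the square root of F. The common biological coefficient of variation was 1.19. Every adjusted p is from edgeR unless DESeq2 1.42.0 or limma 3.58.1 is named. Named entries were the members, the 13 listed epithelial miRNAs and the 5 mature entries most correlated with each main arm. Members and lists were chosen with earlier results of these data known. Each library counted as 1 replicate. Libraries of a stage differed by more than sampling noise (chi-square per degree of freedom 41.5 to 137). That spread does not show that they came from separate litters or embryos. The fits were also run on simulated data with less spread between libraries than here and no outlying library. That run checks the code and not the calls at the spread of these data. Alternatives were RLE scaling, library size alone, other filters, DESeq2, limma voom, a robust fit, a replicate block, single pairs of stages, mature arms only, removal of mir-6236 and mir-6240, and each library left out in turn. A fit without both libraries of the 36-base limit was added after seeing the data.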

Additional observations from a re-analysis of the deposited data

Results flagged for a closer look

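The 3 members left out of the tests each had counts in a single library, above the 3 counts that a count of 0 allows. miR-205-3p, the minor arm of the miR-205 hairpin, had 30 counts in E8.5 replicate 1 (52.2 CPM), one of the libraries with the longer read limit. miR-203-5p, the minor arm of miR-203, had 21 counts in E11.5 replicate 3 (25.4 CPM). miR-203b-3p, transcribed from the strand opposite miR-203, had 51 counts in E11.5 replicate 1 (117 CPM), a library in which miR-203-5p had none.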

How the results depend on the processing

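miR-203-3p was called higher at E9.5 than at E8.5 in 10 of 11 alternatives that kept every library (log2 fold change 3.90 to 5.57). The other, DESeq2, gave no p for miR-203-3p or mir-203 in any comparison. With 1 library left out the value ranged from 2.35 to 6.05. For E10.5 against E9.5, miR-203-3p was called lower with no filter on low counts (-2.02, adjusted p = 0.0318), ranged from -2.83 to 0.21 with 1 library left out, called without E9.5 replicate 1 or 2 (adjusted p = 0.0476 and 0.0347), and was 0.21 without both libraries of the 36-base limit. Its E11.5 against E10.5 value ranged from -0.77 to 0.11 with 1 library left out, positive without E10.5 replicate 3. miR-205-5p at E9.5 against E8.5 was called with RLE (3.15), DESeq2 (3.14) and the filter of over 100 normalized counts in 3 libraries (2.75, adjusted p = 0.0329), and ranged from 2.09 to 3.06 with 1 library left out. For E10.5 against E9.5 miR-205-5p was -0.12 with RLE and with DESeq2 and ranged from -0.12 to 0.81 with 1 library left out, and for E11.5 against E10.5 it ranged from -0.31 to 0.12. The cause of these changes was not tested.

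Other signs that turned were those of miR-205-5p at E11.5 against E9.5 (RLE -0.51, DESeq2 -0.51, single pairs of stages -0.24, the filter of over 100 counts -0.063, without mir-6236 and mir-6240 -0.12, without E9.5 replicate 2 -0.28); mir-203 under limma voom (1.24 at E10.5 and 1.98 at E11.5 against E9.5), without E9.5 replicate 3 (-0.45 at E9.5 against E8.5, then 3.87 and 4.37; ranges with 1 library left out -0.45 to 7.86, -4.08 to 3.87 and -3.56 to 4.37) and without both libraries of the 36-base limit (3.86 and 4.37); mir-205 without E9.5 replicate 3 (-0.54 at E9.5 against E8.5, range -0.54 to 3.46) and under limma voom (0.019 at E11.5 against E10.5); and, against E8.5, miR-141-3p (0.16 under limma voom at E9.5, and at E10.5 -0.077 without E10.5 replicate 2, up to 1.88 with another library left out), miR-96-5p (-0.10 without E11.5 replicate 2, up to 0.77 with another left out) and miR-183-5p at E9.5 (0.62 with RLE and DESeq2, 0.58 with single pairs of stages, 0.26 with the filter of over 100 counts, 0.076 with mature arms only, 0.39 without mir-6236 and mir-6240, and -0.19 to 0.28 with 1 library left out, positive without E8.5 replicate 3, E9.5 replicate 2 or E10.5 replicate 1). mir-203 at E9.5 against E8.5 also lost its call under limma voom (2.45), the robust fit (6.66, adjusted p = 0.0579) single pairs of stages (7.44), without E8.5 replicate 2 or 3 (adjusted p = 0.104 and 0.192) and without both libraries of the 36-base limit (0.82, adjusted p = 0.789). Calls gained were those of miR-203-3p against E8.5 under limma voom and no filter (E10.5 and E11.5), single pairs and mature arms only (E10.5), and of mir-203 at E11.5 under limma voom, single pairs and no filter. Over all results of single entries, 1076 values kept direction and side of the threshold, 90 became called, 57 lost a call and 34 turned.

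The replicate numbers did not pair the libraries: the correlation of deviations between libraries of the same number was -0.15 to 0.11 and 3 of 12 libraries were most like those of their own number. With the number as a replicate block, miR-203-3p at E9.5 against E8.5 was 3.92 (adjusted p = 0.00830), and the calls lost among the members were mir-203 at E9.5 (5.10, adjusted p = 0.129) and miR-205-5p at E10.5 and E11.5 against E8.5 (adjusted p = 0.0687 and 0.0629), while mir-203 at E11.5 against E8.5 became called (4.50, adjusted p = 0.0498). Across all entries the calls at E9.5 against E8.5 numbered 32, from 17 under limma voom to 60 with DESeq2, those at E10.5 against E9.5 numbered 25 (1 to 52), those at E11.5 against E10.5 numbered 2 (1 to 9), those at E11.5 against E9.5 numbered 26 (6 to 61), and those against E8.5 numbered 49 at E10.5 (41 to 108) and 66 at E11.5 (59 to 147). The median of all entries moved with RLE by 0.64 at E9.5 against E8.5 by -0.46 at E10.5 against E9.5 and by -0.71 at E11.5 against E9.5, a shift of all entries about as large as the move of miR-205-5p there, and library size alone by -0.26 in the first. Depth limits E9.5 most (37 to 72 counts of miR-205-5p).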
